A study of Rattus norvegicus with 6 samples.

Results

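The genes described here encode the enzymes of cholesterol and fatty acid synthesis and the proteins that control them, and they are known targets or partners of the sterol regulatory element binding proteins (SREBPs). They were chosen by name, as 35 gene symbols in 5 groups: the mevalonate steps, the squalene and post-squalene steps, fatty acid synthesis, fatty acid desaturation, and a group of regulators with 1 sterol carrier. The choice was made with earlier results of these data known. The counts of members below are therefore a description, and no set test was run on these symbols. Of the 13526 genes in the deposited table, 34 carried 1 of these symbols, each in 1 row, and Fdps, which encodes farnesyl diphosphate synthase, was not analysed here. All 34 passed the filter of a mean of at least 1 TPM (transcript abundance corrected for length and scaled to a fixed sum), which left 12564 genes to test.

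RNA was sequenced from primary vascular smooth muscle cells (VSMCs) of wild-type rat thoracic aorta that had been kept in osteogenic media (OM), which holds 10 mM β-glycerophosphate and 3.5 mM CaCl2. Of the 6 samples, 3 also received 1 μM empagliflozin, a drug that inhibits SGLT2, a transporter of sodium and glucose (OM plus EMPA group), and 3 did not (OM group). The labels give 5 days of treatment and a growth medium with 10% fetal bovine serum, and the study's figure legend gives another number of days for these samples. The sample titles write Pi for the medium, a name the study also uses for a separate treatment with inorganic phosphate, while OM is what the protocol text of the labels and the figure legend give, and that name was followed here. The cells were explants of the aortic media that had been passaged in culture, cells without OM were not analysed here, and no source used here ties the replicates to different cultures or rats. The p-values therefore measure the spread between samples alone, which may be technical.

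SREBPs are transcription factors that are made as membrane proteins of the endoplasmic reticulum. When sterols are scarce, the escort protein SCAP carries SREBP to the Golgi apparatus, where proteases release the part that enters the nucleus. When sterols are plentiful, the INSIG proteins hold SCAP and SREBP back. SREBP2, encoded by Srebf2, is best known for the genes of cholesterol synthesis, and the main SREBP1 forms, encoded by Srebf1, for those of fatty acid synthesis. The INSIG1 gene is itself an SREBP target, so that its transcript is often read as a sign of the pathway's activity.

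Most of these genes were higher with empagliflozin, by small amounts. Of the 34 members, 16 rose and 0 fell at a limma adjusted p no higher than 0.05, and 18 did not pass. Over all tested genes, 2.06% rose and 4.86% fell by the same rule. At an unadjusted p under 0.05, 27 members were higher and 1, Scap, was lower, and over all tested genes 6.42% were higher and 17.6% lower at that unadjusted threshold. In 27 members every OM plus EMPA library was above every OM library, and in 1 member every one was below. Over all tested genes these shares were 7.85% and 22.5%. The median log2 fold change of the members was 0.23, on the scale of log2(TPM + 1) with OM plus EMPA minus OM, and that of all tested genes was -0.05. On this scale 32 of 34 members were positive, against 34.9% of all tested genes.

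The calls depended on how the libraries were scaled and on single libraries. TPM of each library are scaled to nearly the same sum, and transcripts of the mitochondrial genome took 10.3 to 10.9% of it in the libraries with empagliflozin and 8 to 9.69% in the others. After scaling by median ratios of genes between libraries, all 16 members stayed higher and 7 more passed, with 0 lower, and all 34 kept their sign under this and both other scalings tried, while over all genes the split of 259 higher and 611 lower turned to 390 and 381. The median log2 fold change of all tested genes, -0.0545 before, was -0.000575 with median-ratio and 0.00495 with upper-quartile scaling. The shares of all tested genes given above as positive or not overlapping hold for the TPM as deposited, and were not computed under other scalings. With 1 library left out, 5 to 10 members were higher, 5 without OM replicate 3 and 6 without OM plus EMPA replicate 1. Scd, Scd2, Acss2, Fads2 and Insig1 passed whichever library was left out. Sqle, Lss, Pmvk and Elovl5 passed in none of these 6 fits. Without limma's variance trend 7 members passed.

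**Figure D1:**
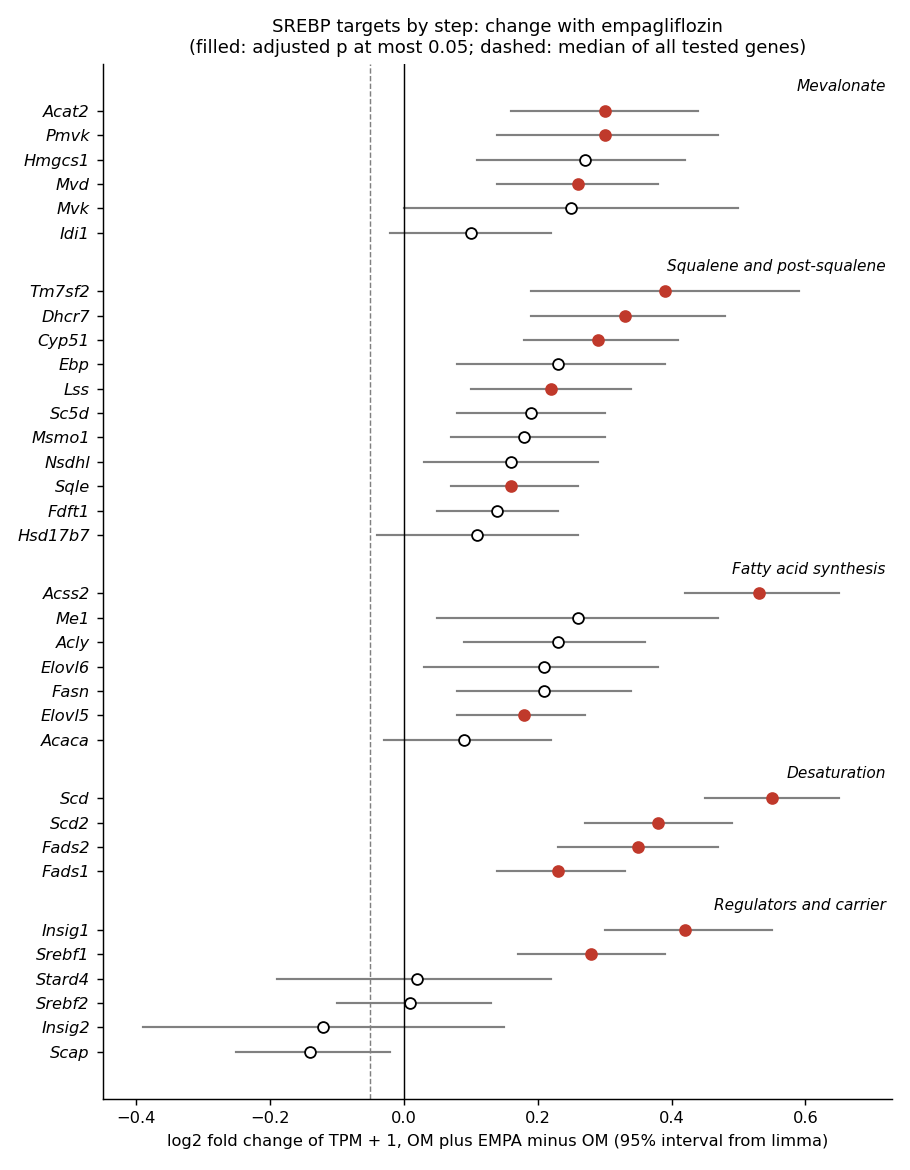
Difference of the OM plus EMPA from the OM group in log2(TPM + 1) for the 34 members by step, with 95% intervals from limma. Filling marks a limma adjusted p no higher than 0.05, and the dashed line is the median of all tested genes at -0.05. The points run from -0.14 for Scap to 0.55 for Scd, and 32 lie above 0.

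The desaturases, which place double bonds in fatty acids, changed most as a group. All 4 rose, with a median log2 fold change of 0.36. Scd encodes a stearoyl-CoA desaturase, which makes monounsaturated from saturated fatty acids. Its TPM were 370.1, 367 and 368 with empagliflozin and 246, 265 and 243 without it. The 3 libraries with empagliflozin lay within 4 TPM of each other and far above the OM libraries. Scd rose by 46.5% in mean TPM (log2 fold change 0.55 with SE 0.04, limma adjusted p = 0.00187), the largest log2 fold change among the members.

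Scd2, its close relative, had the highest TPM of all members, and ranked 99 of 13526 genes by mean TPM. Its TPM were 1536, 1476 and 1474 with empagliflozin and 1134, 1203 and 1117 without it. Scd2 rose by 29.9% (log2 fold change 0.38 with SE 0.05, limma adjusted p = 0.00599). It held 17.3% of the members' summed TPM in the OM group and 18.4% in the OM plus EMPA group. Within each library the ratio of Scd2 to Scd was lower with empagliflozin, at 4.06 ± 0.0775 (SD, n = 3) against 4.58 ± 0.0391 (SD, n = 3), and the groups did not overlap. The genes are paralogs, so reads that fit both could be shared between them, and the row of Scd2 spans 103 kb where its reference gene spans 13 kb. That row overlaps the row of Scd3, another paralog on the same strand, which was listed at 1.57, 1.06 and 1.09 TPM with empagliflozin and 0.36, 0.39 and 0.29 TPM without it and did not reach the filter. The values of Scd2 and Scd are therefore uncertain as to how reads were split.

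Fads2 and Fads1 encode desaturases that act in the making of long polyunsaturated fatty acids. Fads2 was at 373, 379.8 and 368 TPM with empagliflozin and 283, 316 and 281 TPM in the OM libraries (log2 fold change 0.35 with SE 0.05, limma adjusted p = 0.011). Fads1 was at 253, 252 and 243 TPM against 209, 220.5 and 206 TPM (log2 fold change 0.23 with SE 0.04, limma adjusted p = 0.0202). For both genes the lowest value with empagliflozin was above the highest value without it. The call of Fads1 was lost in 4 of the 6 fits that left out 1 library, with limma adjusted p-values of up to 0.078 (without OM replicate 3). Fads3, a relative of them that was not among the 34 members and lies beside Fads2, rose too (69.2 ± 1.76 against 57.5 ± 4.07 TPM, log2 fold change 0.27, limma adjusted p = 0.0378). In the coordinates of the authors' table, for which no source used here names a build, Fads2 lies on chromosome 1 from 206708783 to 206748789 on the minus strand and Fads1 from 206826433 to 206842734 on the plus strand, 77.6 kb apart. Scd2 and Scd lie 87.4 kb apart on the same chromosome, which holds 7 of the 34 members.

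**Figure D2:**
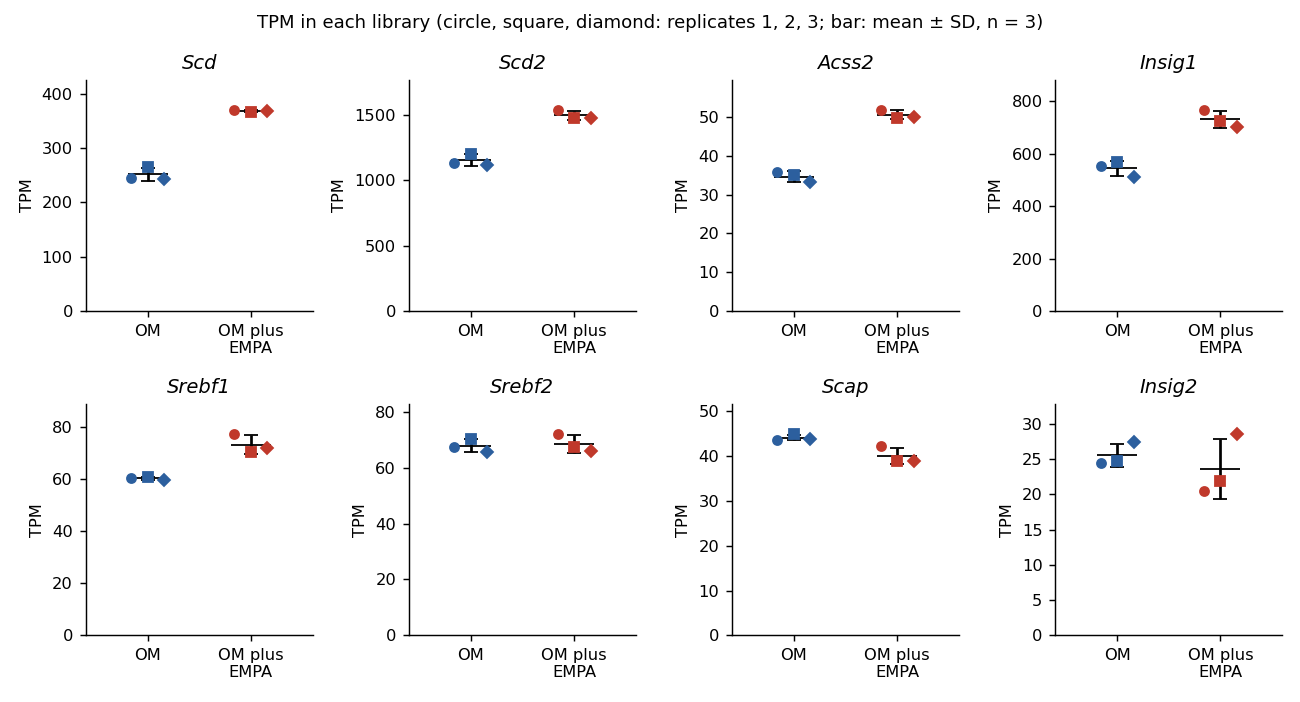
TPM of 8 members in each library, with OM in blue, OM plus EMPA in red, symbols for replicates 1 to 3 and bars for the mean ± SD (n = 3). Scd, Scd2, Acss2, Insig1 and Srebf1 are higher in all 3 OM plus EMPA libraries, Srebf2 and Insig2 overlap, and Scap is lower in all 3.

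The regulators were split. Insig1, the feedback brake named above, was at 767, 724 and 701 TPM with empagliflozin and 553, 567 and 512 TPM without it, so that the groups lay well apart. It rose by 34.3% (log2 fold change 0.42 with SE 0.06, limma adjusted p = 0.00635). Insig2, the relative that performs the same task and is not known as an SREBP target, was at 20.5, 21.9 and 28.5 TPM against 24.4, 24.8 and 27.4 TPM. The Insig2 values of the groups overlapped, with OM plus EMPA replicate 3 the highest of all 6 libraries (log2 fold change -0.12, 95% interval -0.39 to 0.15, limma adjusted p = 0.569, and a log2 fold change of -0.26 without that library). TPM of Insig1 were 31.7 ± 6.58 times those of Insig2 with empagliflozin and 21.4 ± 2.38 times without it (SD, n = 3).

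Of the transcription factors themselves, Srebf1 rose and Srebf2 did not pass. Srebf1 was at 77.4, 70.7 and 72.2 TPM with empagliflozin and 60.5, 61 and 59.7 TPM in the OM group (log2 fold change 0.28 with SE 0.05, limma adjusted p = 0.0164). The 3 OM libraries were close together and all below the others, and without OM replicate 1 or 3 the call was lost, with limma adjusted p-values of up to 0.0625. Srebf2 was at 72, 67.5 and 66 TPM against 67.4, 70.3 and 65.7 TPM, and the groups overlapped throughout (log2 fold change 0.01, 95% interval -0.10 to 0.13, limma adjusted p = 0.896). The ratio of Srebf1 to Srebf2 within a library was 1.05 to 1.09 with empagliflozin and 0.867 to 0.909 without it. The TPM of Srebf1 do not separate its isoforms.

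Scap, which encodes the escort protein, was at 42.1, 38.8 and 38.9 TPM with empagliflozin and 43.6, 44.8 and 43.8 TPM without it. It was the 1 member whose OM plus EMPA libraries all lay below the OM libraries, by 0.14 on the log2 scale, and it did not pass the test (95% interval -0.25 to -0.02, limma adjusted p = 0.147). Over all tested genes 22.5% lay lower without overlap. With median-ratio and with upper-quartile scaling the log2 fold change of Scap was -0.08 (limma adjusted p = 0.374 and 0.429). Stard4, which encodes a carrier of sterol through the cytosol, had the lowest TPM of the members and overlapped between the groups, at 24.9, 22.1 and 20.5 against 20.4, 22 and 24.2 TPM (log2 fold change 0.02, 95% interval -0.19 to 0.22, limma adjusted p = 0.929). Of 5 ratios of members compared within libraries, namely Insig1 to Insig2, Srebf1 to Srebf2, Scd2 to Scd, Srebf2 to Scap and Fads2 to Fads1, each gave p = 0.1 by a two-sided exact permutation test, raw and adjusted, and p = 0.1 is the smallest that 3 libraries against 3 can give. None of these ratios overlapped between the groups, which alone fixes that value. The test therefore adds nothing to the lack of overlap.

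In fatty acid synthesis, 2 of 7 members rose and 0 fell, and at an unadjusted p under 0.05 from limma 6 were higher and 0 lower. Acss2, which makes acetyl-CoA from acetate in the cytosol and nucleus, stood apart from the rest of the group. It was at 51.8, 49.6 and 50.1 TPM with empagliflozin and 35.8, 34.9 and 33.1 TPM without it, a rise of 45.9% with no overlap (log2 fold change 0.53 with SE 0.05, limma adjusted p = 0.00246). Acly, which makes acetyl-CoA from citrate, was at 276, 248 and 252 TPM against 225, 229 and 209 TPM, also without overlap, and missed the threshold (log2 fold change 0.23, limma adjusted p = 0.0561).

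Acaca, whose product acetyl-CoA carboxylase makes the malonyl-CoA used for chain building, differed least in this group, at 43.9 ± 1.98 against 41.1 ± 1.58 TPM (SD, n = 3), and the groups overlapped (log2 fold change 0.09, 95% interval -0.03 to 0.22, limma adjusted p = 0.339). Fasn, the fatty acid synthase, was at 213, 189 and 188 TPM against 171, 174 and 164 TPM. All 3 of its values with empagliflozin were above the OM values, and it did not pass (log2 fold change 0.21, limma adjusted p = 0.0683). The malic enzyme Me1, a source of NADPH, had a log2 fold change of 0.26 and a limma adjusted p of 0.135. Among the elongases, which lengthen fatty acids, Elovl5 rose from 136 ± 4.67 to 154 ± 2.34 TPM (log2 fold change 0.18, limma adjusted p = 0.0443). The call of Elovl5 was lost in each fit without 1 library, with a limma adjusted p of up to 0.129 (without OM plus EMPA replicate 3). Elovl6 was at 34.8 ± 3.13 against 30 ± 1.85 TPM and did not pass (log2 fold change 0.21, limma adjusted p = 0.153).

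In the mevalonate steps, which build the isoprenoid units of cholesterol from acetyl-CoA, 3 of 6 members rose and 0 fell. At an unadjusted p under 0.05 from limma, 5 were higher and 0 lower. Acat2, which joins acetyl-CoA units, was at 459, 429.6 and 429 TPM against 377, 368 and 326 TPM (log2 fold change 0.30 with SE 0.06, limma adjusted p = 0.031). Its row spans 131 kb, its reference gene 57 kb, so it may hold transcripts beyond the gene. Hmgcs1, the synthase of the next step, was at 431, 459 and 424 TPM against 341, 399 and 353 TPM. These values did not overlap, OM replicate 2 being the highest of the OM group, and the gene missed the threshold (log2 fold change 0.27 with SE 0.07, limma adjusted p = 0.0527), which it passed under each of the 3 other scalings and without OM replicate 2.

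The kinase Pmvk and the decarboxylase Mvd act one after the other on phosphorylated mevalonate. Pmvk was at 86.9, 74.2 and 78.8 TPM against 68, 65.3 and 60.1 TPM (log2 fold change 0.30 with SE 0.07, limma adjusted p = 0.0445). Mvd was at 98, 95.8 and 97.7 TPM against 86.6, 79.5 and 77.1 TPM (log2 fold change 0.26 with SE 0.05, limma adjusted p = 0.0272). Neither gene overlapped between the groups, and the spread of Mvd with empagliflozin was the smaller of the pair. Mevalonate kinase itself, Mvk, varied more between libraries, from 34 TPM in OM replicate 3 to 53 TPM in OM plus EMPA replicate 1 (log2 fold change 0.25 with SE 0.11, limma adjusted p = 0.206), and its log2 fold change was 0.13 without OM replicate 3. Idi1, the isomerase that follows, was at 138 ± 7.92 against 129 ± 4.49 TPM, and its groups overlapped (log2 fold change 0.10, 95% interval -0.02 to 0.22, limma adjusted p = 0.289). With 1 library left out, Acat2 and Mvd each passed in 1 of 6 fits and Pmvk in 0, with limma adjusted p-values of up to 0.0901 for Acat2 (without OM plus EMPA replicate 1), and of up to 0.0879 for Mvd and 0.127 for Pmvk (both without OM replicate 3).

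In the steps from squalene to cholesterol, 5 of 11 members rose and 0 fell, and at an unadjusted p under 0.05 from limma 10 were higher and 0 lower. Every member was positive, with log2 fold changes from 0.11 to 0.39. Fdft1, squalene synthase, was at 126, 127 and 124 TPM against 116, 114 and 111 TPM, a small difference between tight groups that did not pass (log2 fold change 0.14 with SE 0.04, limma adjusted p = 0.0685). Sqle, squalene epoxidase, a rate-limiting enzyme of the later steps, was at 276, 284 and 274 TPM against 247, 255 and 242 TPM (log2 fold change 0.16 with SE 0.04, limma adjusted p = 0.0488). Lss, which closes the sterol rings, was at 199.8, 179 and 188 TPM against 168, 161 and 157 TPM (log2 fold change 0.22 with SE 0.05, limma adjusted p = 0.0448). Both calls lie close to the threshold and were lost whichever of the 6 libraries was left out, with limma adjusted p-values of up to 0.157 and 0.136, both without OM replicate 3.

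Cyp51, the demethylase that acts on lanosterol, was at 612, 584 and 578 TPM with empagliflozin and 497, 493 and 456 TPM without it. It rose by 22.7% with no overlap (log2 fold change 0.29 with SE 0.05, limma adjusted p = 0.0143). Tm7sf2, a sterol reductase that acts next, was at 116, 96.8 and 101 TPM against 87.9, 77.1 and 73 TPM (log2 fold change 0.39 with SE 0.09, limma adjusted p = 0.0378), the largest change and the widest spread of this group. Dhcr7, the reductase of a last step, was at 72.1, 65.9 and 64.7 TPM against 54.5, 56.1 and 50 TPM (log2 fold change 0.33 with SE 0.06, limma adjusted p = 0.0233). With 1 library left out, Cyp51 passed in 4 of 6 fits, Dhcr7 in 2 and Tm7sf2 in 1. The highest limma adjusted p-values were 0.0537 for Cyp51 without OM plus EMPA replicate 1, and 0.0704 for Dhcr7 and 0.11 for Tm7sf2 without OM replicate 3.

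The demethylation enzymes between them did not pass. Msmo1, the methylsterol oxidase, had the highest TPM of the sterol enzymes, at 726, 710.4 and 688 against 657, 624 and 594 TPM, without overlap (log2 fold change 0.18, limma adjusted p = 0.0714). Nsdhl, the dehydrogenase that works with it, had a log2 fold change of 0.16 and a limma adjusted p of 0.13. Hsd17b7, the reductase of the same complex, was the 1 gene of the 11 whose groups overlapped (39.9 ± 2.53 against 36.9 ± 1.94 TPM, log2 fold change 0.11, limma adjusted p = 0.352). Ebp, a sterol isomerase, and Sc5d, a sterol desaturase, had log2 fold changes of 0.23 and 0.19 and adjusted p-values of 0.0822 and 0.0511 from limma. The row of Ebp overlaps that of Porcn on the same strand, so its reads may be shared. Of the 34 members, 6 have a row of another gene on the opposite strand across them. Among them are Acss2 (with Gss), Fads2 (with Fth1) and Srebf1 (with Rai1). The counting is not stated to use strand, so reads of these genes may be shared too.

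Summed TPM give the weight of each step, since TPM are corrected for length. The 34 members together held 8402, 8053 and 7958 TPM with empagliflozin and 6736, 6880 and 6394 TPM without it, so that the groups did not overlap. The mean sum was 22% higher with empagliflozin. Of that difference, 39.4% came from the 4 desaturases, 25.6% from the squalene and post-squalene steps, 13.9% from the mevalonate steps, 13.2% from the regulators and 7.77% from fatty acid synthesis. Scd2 alone gave 23.5%. Most of the regulators' part was Insig1, at 731 ± 33.4 against 544 ± 28.8 TPM, in a regulator sum of 959 ± 40 against 764 ± 29 TPM. Scap and Insig2 were lower in mean TPM with empagliflozin. In a culture measured in bulk, more transcript per cell and more cells that make it cannot be told apart.

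**Figure D3:**
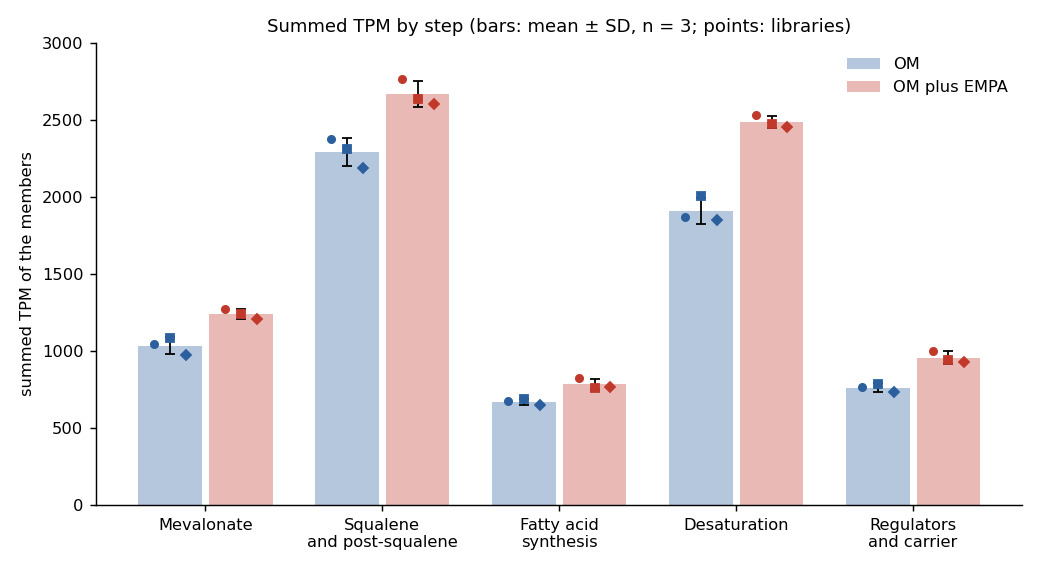
Summed TPM of the members of each step, with bars for the mean ± SD (n = 3) and points for the libraries. The sums with empagliflozin lie above those of the OM group in each step, at 2486 ± 41.1 against 1907 ± 84.4 TPM for the desaturases and 785 ± 37.6 against 671 ± 20 TPM for fatty acid synthesis. Most of the difference in the regulators is Insig1.

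Levels of the members in the OM group ran from 22.2 ± 1.91 TPM for Stard4 to 1151 ± 45.5 TPM for Scd2. Msmo1, Insig1 and Cyp51 followed at 625 ± 31.1, 544 ± 28.8 and 482 ± 22.3 TPM. Hmgcs1 and Acat2, next at 365 ± 30.7 and 357 ± 27 TPM, did not differ beyond their spread. With empagliflozin Insig1 was above Msmo1, at 731 ± 33.4 against 708 ± 18.8 TPM, a gap within the spread. The transcription factors were at a modest level, with Srebf2 at 67.8 ± 2.32 and Srebf1 at 60.4 ± 0.625 TPM in the OM group, and Acss2, the member with the next largest change after Scd, was among the lower ones at 34.6 ± 1.35 TPM.

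The libraries of a group differed in a way that many members shared. OM plus EMPA replicate 1 was the highest of its 3 libraries in 26 of 34 members, and in 39.8% of all tested genes. OM replicate 3 was the lowest of its 3 in 27 of 34 members, and in 34.5% of all tested genes. The mean difference between groups was therefore larger with these libraries than without them: the median log2 fold change of the members was 0.19 without OM replicate 3 and 0.18 without OM plus EMPA replicate 1.

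**Figure D4:**
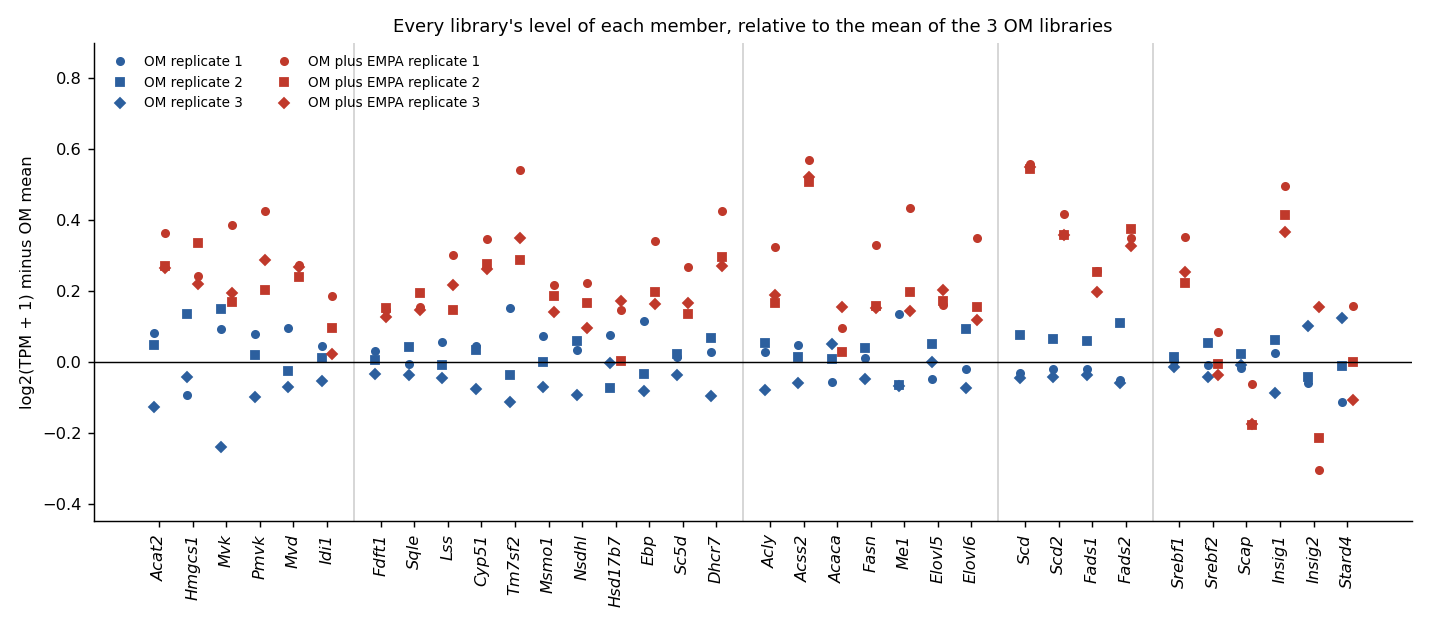
Level of each member in each library, as log2(TPM + 1) minus the mean of the 3 OM libraries, with OM in blue and OM plus EMPA in red and a symbol for each replicate. OM plus EMPA replicate 1 is the highest of its group in 26 of 34 members and OM replicate 3 the lowest of its group in 27.

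Markers of the cell types were checked beside these genes. All 7 smooth muscle markers on the list were detected, with a summed level of 2809 to 3291 TPM in the OM plus EMPA group and 2001 to 2462 TPM in the OM group, and 5 of them rose. Smtn did not pass (log2 fold change 0.15, limma adjusted p = 0.166), nor did Myh11, which was lower in mean (log2 fold change -0.17, limma adjusted p = 0.455). The 5 fibroblast markers summed to 9951 to 10359 TPM against 10237 to 11058 TPM, and 2 of the 4 tested fell. These were Pdgfra and Dcn. Col1a1 went the other way without overlap and did not pass (5132 ± 326 against 4372.6 ± 447 TPM, log2 fold change 0.23, limma adjusted p = 0.156), so the sum holds opposite changes. Of 7 macrophage and leukocyte markers 2 had a row, Cd68 and Cd14, with a sum of 30.1 to 40.0 against 40.5 to 44.3 TPM. Cd68 fell by 0.83 on the log2 scale (limma adjusted p = 0.0378), and Cd14 did not pass (log2 fold change -0.15, limma adjusted p = 0.303). Of 6 adipocyte markers 1, Fabp4, had a row, at 2.49 to 4.38 against 2.99 to 3.74 TPM. None of the 6 endothelial and 5 hepatocyte markers was listed in the table. The part that the shift in these markers has in the members' change was not tested.

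Other genes of the same pathways, listed by function, were fewer among the calls. Of 49 tested, 4 rose (8.16%) and 1 fell, and their median log2 fold change was 0.00. The difference from the members was not tested. Of 13 other genes of sterol synthesis and handling, 0 rose and 1 fell (3 and 2 at an unadjusted p under 0.05 from limma). Por, the reductase that supplies electrons to Cyp51 and Sqle, fell by 0.22 on the log2 scale (adjusted p = 0.0387 from limma), a call that was lost under all 3 other scalings (limma adjusted p of 0.0553 to 0.093) and in 5 of 6 fits without 1 library (up to 0.122, without OM replicate 3). Of 10 genes for SREBP processing and sterol sensing, 0 rose and 0 fell (0 and 2 at an unadjusted p under 0.05 from limma). Their largest difference was that of Paqr3, which tethers SCAP and SREBP to the Golgi (log2 fold change -0.47, limma adjusted p = 0.0892), at -0.30 without OM replicate 1.

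Of 7 genes of the liver X receptors and sterol efflux, 1 rose. It was Mylip, which encodes a ubiquitin ligase for lipoprotein receptors, at 21.4, 21.6 and 23.4 TPM against 13.5, 14.3 and 16.8 TPM (log2 fold change 0.55 with SE 0.09, limma adjusted p = 0.0128). The efflux pump Abca1, which the same receptors control, was at 11.1 ± 0.831 against 9.52 ± 0.591 TPM and did not pass (log2 fold change 0.20, limma adjusted p = 0.19). Of 19 other genes of fatty acid synthesis and activation, 3 rose. Besides Fads3 they were Acsl3, which activates long fatty acids, at 61.9 ± 1.65 against 50.5 ± 1.62 TPM (log2 fold change 0.29, limma adjusted p = 0.0128), and Gpam, which starts glycerolipid synthesis, at 19.7 ± 0.904 against 15.4 ± 0.752 TPM (log2 fold change 0.34, limma adjusted p = 0.0256). With 1 library left out, Mylip passed in 6 of 6 fits, Acsl3 in 5, Fads3 in 1 and Gpam in 0, with a limma adjusted p of up to 0.0513 for Acsl3 (without OM replicate 3), 0.111 for Fads3 (without OM plus EMPA replicate 2) and 0.0785 for Gpam (without OM plus EMPA replicate 1).

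The annotation in the authors' table placed 21 members in the endoplasmic reticulum membrane, of which 12 rose and 0 fell. The term held 526 tested genes, of which 25 rose and 23 fell. The table's pathway for steroid biosynthesis held 11 members among 16 tested genes, and the 5 genes of this pathway that rose were all members. Its pathway for unsaturated fatty acids held 6 members among 21 tested genes, and the 5 that rose were all members. Since the members were chosen with earlier results of these data known, such overlaps are a description only. Genes outside the list rose too in other terms. In terpenoid backbone biosynthesis 4 of 20 tested genes rose, 3 of them members, and in fatty acid metabolism 7 of 48 rose, 6 of them members. In the cholesterol biosynthetic process 9 of 23 rose, 8 of them members. The AMPK signaling pathway of the table held 94 tested genes, of which 4 rose and 3 fell. It counted Scd, Scd2 and the regulator Srebf1, which rose, and Acaca and Fasn, which did not pass, among its genes. Thus 3 of its 4 genes that rose were members of the present list.

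Promoters were read from RefSeq for the rat build GRCr8, as the 250 bases before the annotated start, and 27 of the 34 members matched. Acaca, Elovl6, Fasn, Fdft1, Pmvk, Sqle and Stard4 had no match, so their promoters were not searched. Both strands were searched for forms of the sterol regulatory element, TCACNCCAC and TCACCCCAT, for CCAAT, the box bound by NF-Y, which acts beside SREBP at many of its targets, and for CACGTG, an E-box that SREBPs can also bind. TCACNCCAC was in 0 members and in 0.974% of all 33469 promoters. TCACCCCAT was in 1 member, Srebf2, and in 0.203% of all promoters. CCAAT was in 20 of 27 members (74.1%), in 34% of all promoters and in 37.5% of the tested genes that matched. It was in 9 of the 14 matched members that rose and in 11 of the 13 others. CACGTG was in 4 members, Insig1, Sc5d, Elovl5 and Scap (14.8% of 27), in 5.59% of all promoters and in 8.97% of the tested genes that matched. A match of letters is a description and not a binding site. With TCACNCCAC so rare in 250 bases, 0 matches among 27 members do not show that an element is absent.

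The promoters below were picked after the matches were seen. They show the 1 member with an element match (Srebf2), the regulator that rose most (Insig1), and the stearoyl-CoA desaturases with and without a CCAAT match (Scd2 and Scd). Each runs 5′ to 3′ on the strand of the gene and ends at the base before the start. Capitals mark the searched motifs, and ATTGG is CCAAT read on the other strand. No searched motif shares bases with another in them.
Srebf2, chr7:115543057-115543306, plus strand: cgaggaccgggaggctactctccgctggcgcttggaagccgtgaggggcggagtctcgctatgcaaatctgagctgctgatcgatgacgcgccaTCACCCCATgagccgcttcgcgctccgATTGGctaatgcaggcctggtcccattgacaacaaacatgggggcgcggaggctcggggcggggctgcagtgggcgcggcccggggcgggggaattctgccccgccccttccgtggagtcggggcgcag
Insig1, chr4:8057770-8058019, minus strand: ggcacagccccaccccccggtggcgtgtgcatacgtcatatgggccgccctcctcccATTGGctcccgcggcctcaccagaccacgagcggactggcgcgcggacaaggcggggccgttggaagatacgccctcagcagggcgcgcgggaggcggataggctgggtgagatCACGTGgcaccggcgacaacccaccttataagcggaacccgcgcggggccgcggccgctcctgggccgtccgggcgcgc
Scd2, chr1:253118127-253118376, plus strand: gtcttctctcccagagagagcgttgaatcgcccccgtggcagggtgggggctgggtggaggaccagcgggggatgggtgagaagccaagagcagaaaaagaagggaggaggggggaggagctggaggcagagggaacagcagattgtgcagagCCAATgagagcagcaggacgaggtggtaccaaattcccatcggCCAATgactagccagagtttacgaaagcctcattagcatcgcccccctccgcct
Scd, chr1:253231732-253231981, minus strand: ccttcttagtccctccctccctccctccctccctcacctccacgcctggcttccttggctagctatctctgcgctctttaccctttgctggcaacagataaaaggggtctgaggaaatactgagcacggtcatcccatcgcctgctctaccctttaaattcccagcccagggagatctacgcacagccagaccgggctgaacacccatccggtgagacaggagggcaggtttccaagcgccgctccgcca

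In Srebf2 the element match began 156 bases before the start and a CCAAT match 129 bases before it, while the TPM of Srebf2 overlapped between the groups. In Insig1 the CCAAT match began at 193 and the CACGTG match at 79 bases before the start. Scd2 had CCAAT matches at 97 and 54 bases, and Scd, which changed most, held none of the searched motifs in this window.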

How the data were processed

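RNA-seq values of 6 samples were used, 3 with empagliflozin and 3 without. The authors deposited 1 table of TPM, estimated per gene before deposit, beside their own fold changes, p-values and FDR, which were not used. A shorter table repeats 181 of its rows. Tools named in the submitters' processing notes are DESeq2, RSEM, HISAT2 2.0.5 and fastp, with no roles. The build was not given in the sources used here. For 0 columns was the sample unknown. TPM keep no record of sequencing depth, so the depth behind each value is unknown.

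Groups were compared with limma 3.58.1 in R 4.3.3 on log2(TPM + 1), with a variance trend and group as the only term, over all 12564 genes that averaged 1 TPM or more (4 residual and 3.8 prior degrees of freedom). This scale understates changes of low genes. P-values were adjusted over all of them by the Benjamini-Hochberg method and called at 0.05. The script was tested on simulated data. Members and lists were chosen with earlier results of these data known, and all 34 members in the table are named. Of the other genes listed, those that passed are named, and Paqr3 and Abca1 were added after their values were seen. Of 57 other genes listed 49 had a row, and those not named enter counts only. Markers were fixed by list. Promoters are from RefSeq (GRCr8). Alternatives were a pseudocount of 0.1, no filter, a replicate block, no variance trend, 3 scalings, each library left out and other thresholds.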

Additional observations from a re-analysis of the deposited data

How the results depend on the processing

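The count of 16 members higher became 23 with median-ratio scaling, 23 with upper-quartile scaling, 22 without mitochondrially encoded genes, 24 with the replicate block, 7 without the variance trend, 4 at an adjusted p of at most 0.01 and 23 at 0.1, and the count lower stayed at 0 in every fit. With 1 library left out 5 to 10 members were higher, and their median log2 fold change was 0.18 to 0.25. It was 0.29 with median-ratio and with upper-quartile scaling. Over all tested genes, 259 higher and 611 lower became 390 and 381 with median-ratio scaling, 403 and 384 with upper-quartile scaling, 449 and 951 with the replicate block, 154 and 366 without the variance trend, 35 and 159 at an adjusted p of at most 0.01, and 460 and 1090 at 0.1. Leaving out single libraries gave 80 to 216 higher and 245 to 438 lower, fewest without OM plus EMPA replicate 2. A pseudocount of 0.1 and no filter on low values changed the call of 0 members. Without 1 library the log2 fold change of Srebf2 was -0.02 to 0.04, negative if OM plus EMPA replicate 1 (-0.02) or OM replicate 3 (-0.01) was out, and that of Stard4 was -0.05 to 0.08, negative if replicate 1 of OM plus EMPA (-0.05) or of OM (-0.04) was out, all far from the threshold. The other 32 members kept their sign in every fit. The cause of these changes was not tested.

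The replicate numbers do not pair the samples by any label. Deviations from the group means of same-numbered libraries correlated at 0.0979, 0.162 and 0.0575 across genes, and each library of the OM plus EMPA group correlated best with its own number, a hint from the data and not the design. The fit with the replicate block added 8 members to the 16 and lost 0. Unknown depth limits the precision that can be given for any single value.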
